A study of Mus musculus with 17 samples.

Results

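The genes described here encode the SNARE machinery of granule release, the proteins that fuse a secretory granule with the plasma membrane, in distant MC38 tumors of mice. 10 genes were chosen by name. Vamp2 was chosen because its p was among the smallest of all genes in this same comparison, Snap23 and Stxbp2 because the study's proteomics of other tumors names their proteins, and the others as their partners in granule release. Of the 10 genes, 9 had an entry among the 21931 genes of the deposited table, and Vamp7 was not analysed here.

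Bulk RNA sequencing was performed on tumors that had not been frozen. MC38, a mouse colon cancer cell line, was injected subcutaneously into both flanks of C57BL/6J mice of genotype WT, aged 6 to 8 weeks. In the cryoablation group, 1 of the 2 tumors was frozen with a cryoprobe on day 7, at a diameter of 5 to 6 mm, in 2 cycles of 20 s each per the labels, and the other, distant tumor was collected 5 days later. The control group carried the same tumors without cryoablation and was collected at the same time point, and whether its tumors received an anesthetic or a probe without freezing is not given in the sources used here. By the labels there were 9 control and 8 cryoablation tumors, all grown from this 1 cell line. The study's text gives the group sizes the other way round and a different freezing time, and the labels were used here. In such bulk tissue, fewer cells of a type and less RNA per cell cannot be told apart.

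Membrane fusion by SNAREs requires a syntaxin and a SNAP protein on the target membrane and a VAMP protein on the vesicle, which zip into 1 bundle and pull the membranes together. An SM protein such as Stxbp2 holds and guides the syntaxin, and a priming factor such as Unc13d readies the docked granule. In cytotoxic lymphocytes, Stx11, Stxbp2 and Unc13d are required for the release of perforin and granzymes, and inherited loss of any of them causes familial hemophagocytic lymphohistiocytosis. The same family of proteins serves degranulation of mast cells, platelets and neutrophils, and most of its members also work in routine traffic to the cell surface in many other cell types.

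Total counts ranged from 13524899 to 17898672 per tumor. Cryoablation replicates 2, 4 and 5 stood apart from the other 14 tumors in properties of the whole library. Their ribosomal protein genes took 13.1% to 15.2% of the counts, against 4.96% to 10.7% in the others, and their mitochondrial genes 0.880% to 1.02%, against 1.19% to 1.59%. Short genes were also overrepresented in them. This was measured by a length index, the mean log2 ratio to the gene's own mean in the shortest 20% of tested genes minus that in the longest 20%, which lay at 0.82, 0.72 and 1.06 in replicates 2, 4 and 5, between -0.53 and 0.45 in the control tumors and between -0.63 and 0.04 in the other 5 cryoablation tumors. The fold changes and correlations of the members are therefore given with and without these 3 tumors, while the exact permutation p use all 17. The labelled tissue was also checked. Cdx2, a transcription factor that defines the colon epithelium, had 0 counts in all 17 tumors, while fibroblast and macrophage genes were abundant.

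The sequences just upstream of 4 members are shown because, as shown further on, Stxbp2, Vamp8 and Stx4a went with the length index over tumors and Snap23 went against it. Each is the 250 bases before the transcript start in the RefSeq promoters of GRCm38.p6, written 5′ to 3′ on the strand of the gene. Capitals mark matches on either strand to the CCAAT box (on the reverse strand ATTGG), the GC box written GGGCGG, the TATA box written TATAAA, the E-box written CACGTG and the ETS motif written CCGGAAG. The windows are chr8:3630859-3631108 on the plus strand for Stxbp2, chr6:72390668-72390917 on the minus strand for Vamp8, chr7:127841558-127841807 on the plus strand for Stx4a and chr2:120567421-120567670 on the plus strand for Snap23.
Stxbp2: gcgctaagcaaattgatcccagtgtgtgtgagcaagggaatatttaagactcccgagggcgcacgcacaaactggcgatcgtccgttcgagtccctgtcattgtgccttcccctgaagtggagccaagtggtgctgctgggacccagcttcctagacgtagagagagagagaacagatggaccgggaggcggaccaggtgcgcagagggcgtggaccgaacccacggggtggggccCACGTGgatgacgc
Vamp8: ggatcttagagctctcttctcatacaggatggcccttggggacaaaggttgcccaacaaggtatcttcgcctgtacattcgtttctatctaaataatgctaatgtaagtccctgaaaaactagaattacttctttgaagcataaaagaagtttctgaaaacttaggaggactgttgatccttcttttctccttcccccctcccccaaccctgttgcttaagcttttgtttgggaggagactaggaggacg
Stx4a: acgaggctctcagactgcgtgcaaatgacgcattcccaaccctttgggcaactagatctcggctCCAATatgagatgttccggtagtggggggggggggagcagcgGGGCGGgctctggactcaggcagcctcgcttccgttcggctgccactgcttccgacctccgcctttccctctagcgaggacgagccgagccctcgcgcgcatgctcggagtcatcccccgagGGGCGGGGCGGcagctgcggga
Snap23: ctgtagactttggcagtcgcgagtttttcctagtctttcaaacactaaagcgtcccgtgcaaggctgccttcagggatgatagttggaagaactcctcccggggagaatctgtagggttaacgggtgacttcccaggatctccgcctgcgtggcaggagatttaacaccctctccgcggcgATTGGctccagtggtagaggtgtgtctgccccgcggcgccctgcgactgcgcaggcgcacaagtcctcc

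The 4 windows did not share a motif. That of Stxbp2 held 1 CACGTG, which stands in 6.02% of the windows of the same length before all 32851 RefSeq promoters. The Stx4a window held 3 GGGCGG, of which the last 2 overlap by 1 base, and 1 CCAAT, while that of Snap23 held 1 CCAAT on the reverse strand. GGGCGG stands in 32.7% and CCAAT in 33.8% of all windows. The Vamp8 window held none of the motifs searched, TATAAA (12.4% of all windows) and CCGGAAG (6.91%) included. GC content was 43.6% in the Vamp8 window, below the 52.4% median of all windows, and 60.4%, 66.4% and 58.4% in those of Stxbp2, Stx4a and Snap23. Such matches describe the letters and do not show that a factor binds. 6 of the 10 members had a RefSeq promoter, and Vamp2, Vamp3, Vamp7 and Unc13d had none in the table used.

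All 9 measured members were well above the detection limit, from 87 counts of Stx11 in 1 cryoablation tumor to 3042 counts of Stx4a in another, and all 9 passed the filter on low counts. Compared per length, in the deposited FPKM, the mean levels in the control group were 45.1 for Stx4a, 42.8 for Vamp3, 22.8 for Vamp8, 20.9 for Vamp2, 13.0 for Snap23, 11.7 for Stxbp2, 4.52 for Stx11, 4.09 for Unc13d and 3.39 for Stx3. The order thus ran from the broadly used plasma membrane syntaxin and its vesicle partner to 3 genes of low level, among them the lymphocyte pair Stx11 and Unc13d. Of the 8 pairs of neighbours in this order, 3 differed beyond their spread, each in the same direction in 9 of 9 control tumors (two-sided exact permutation test of the paired log2 differences by sign changes, adjusted p = 0.0104 over the 8 pairs). These were Vamp3 over Vamp8, Vamp2 over Snap23 and Stxbp2 over Stx11. The other 5 pairs did not pass, with exact adjusted p from 0.0938 to 0.73. In the cryoablation group the order was the same except that Stxbp2, at 12.7 FPKM, stood above Snap23, at 10.4 FPKM. This exchange came with replicates 2, 4 and 5: in the other 5 cryoablation tumors Snap23 had 12.8 and Stxbp2 10.9 FPKM, and there Vamp2, at 23.7 FPKM, stood above Vamp8, at 18.4 FPKM.

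**Figure D1:**
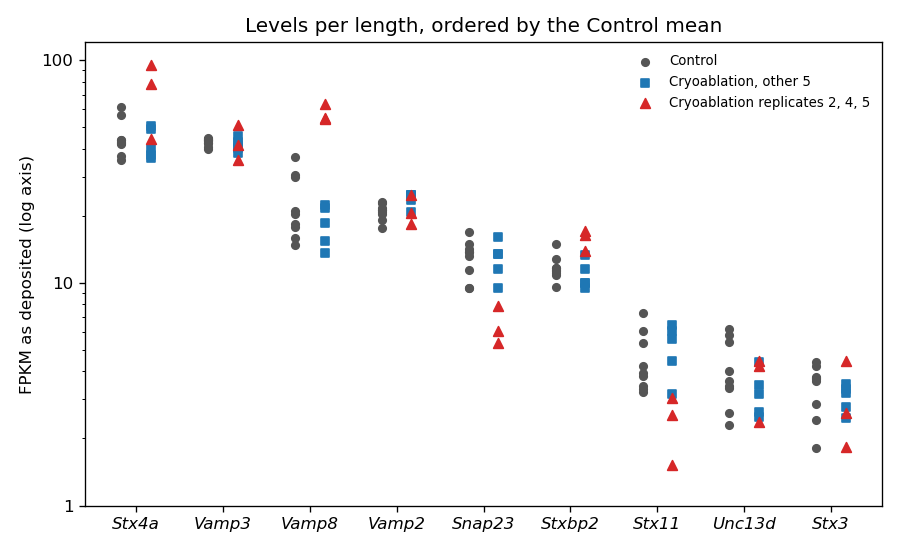
Deposited FPKM of the 9 measured members (vertical log axis) in each tumor, ordered from left to right by the control mean. Circles are control tumors, squares the 5 cryoablation tumors other than replicates 2, 4 and 5, and triangles those 3 replicates; Stx4a and Vamp3 are highest, and Stx11, Unc13d and Stx3 lowest.

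The 2 groups were then compared with edgeR's quasi-likelihood test on counts, with TMM scaling. The question was whether freezing 1 tumor was followed by other RNA levels of the fusion genes in the distant tumor. None of the 8 members other than Vamp2 passed the adjusted threshold of 0.05, nor did any of the 13005 genes tested, of which the smallest adjusted p was 0.728. Without adjustment, 0 of the 8 had a p under 0.05, where 639 of all genes tested (4.91%) did, 487 higher (3.74%) and 152 lower (1.17%) in the cryoablation group. Without replicates 2, 4 and 5, 0 of the 8 had a p under 0.05, where 325 of 13250 genes (2.45%) did, 172 higher and 153 lower. DESeq2 put 1 of the 8 under 0.05 without adjustment and limma voom 3, with 881 and 1312 of all genes, and both put 0 under it with adjustment. Control and cryoablation tumors overlapped for all 9 members, as for each of the 13005 genes. Values of single tumors below are CPM, the counts divided by the TMM-scaled library size and set to a common total, and differences are log2 fold changes of cryoablation over control with the standard error of the fit.

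**Figure D2:**
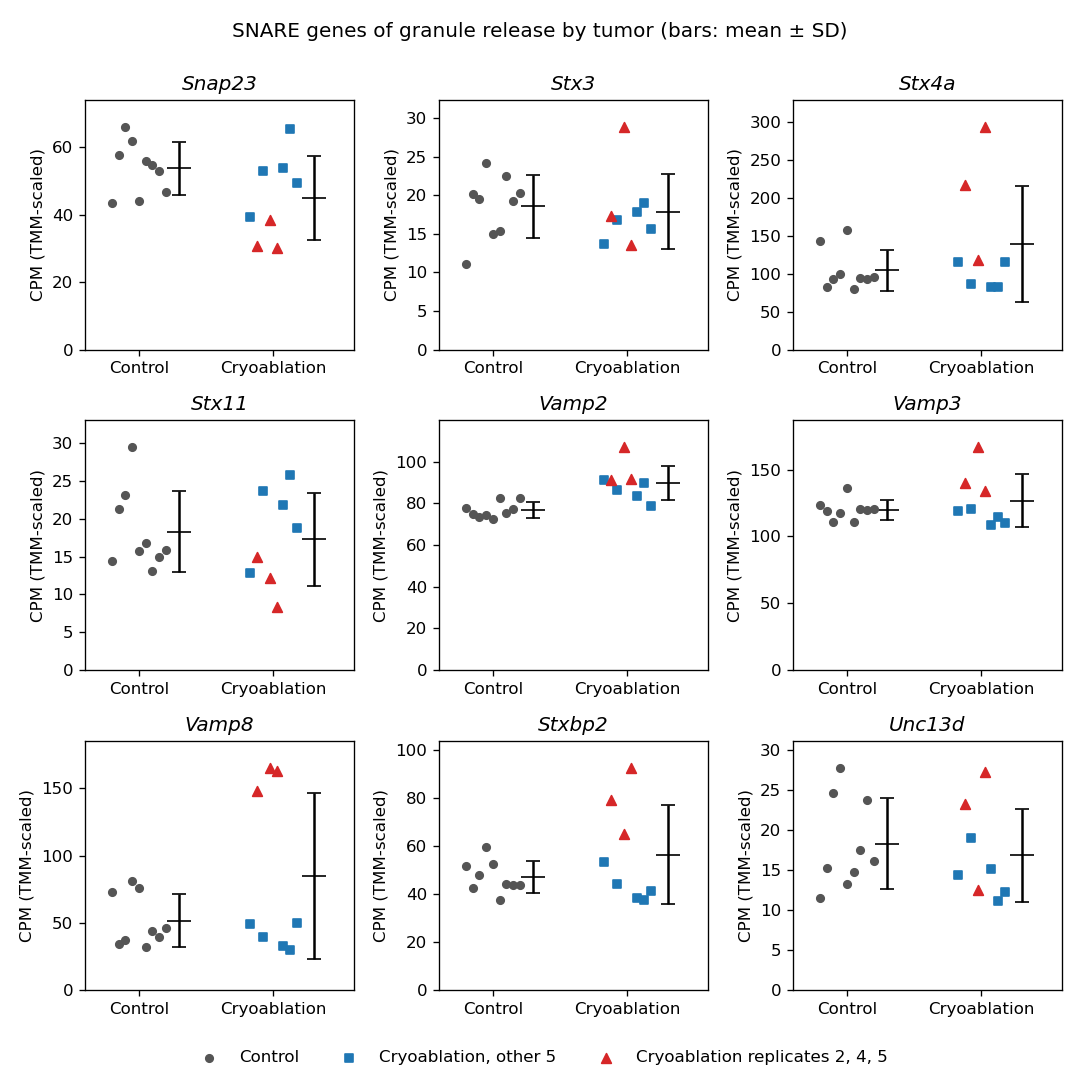
TMM-scaled CPM of the 9 measured members in each tumor (linear vertical axes from 0). Circles are control tumors, triangles cryoablation replicates 2, 4 and 5, squares the other 5 cryoablation tumors, and bars the mean ± SD of each group; the triangles are high for Vamp8 and Stxbp2 and low for Snap23.

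Snap23, at 2:120398152-120431736 in the deposited coordinates, encodes the SNAP protein of most cells outside the nervous system and bridges syntaxin and VAMP. It had between 43.5 and 66.0 CPM in the control tumors, with a median of 54.8, and between 30.0 and 65.3 CPM in the cryoablation tumors, with a median of 44.3. The groups overlapped, but 4 cryoablation tumors lay under the whole control range and 7 of 8 under its median. Mean levels of 53.7 ± 7.79 CPM (SD, n = 9) in control and 44.9 ± 12.4 CPM (SD, n = 8) in cryoablation tumors resulted. The difference of -0.26 ± 0.15 did not pass the test (edgeR adjusted p = 0.728, exact permutation p = 0.0783, two-sided), and its 95% interval ran from -0.57 to 0.05. Replicates 2, 4 and 5 held 30.6, 38.3 and 30.0 CPM, which were the 3 lowest values of all 17 tumors. Without them the difference was -0.051 ± 0.12 (edgeR adjusted p = 0.948). The lower mean of Snap23 thus came with these 3 tumors.

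Among the syntaxins, Stx4a, at 7:127423466-127448191, is the plasma membrane syntaxin used by most secretory cells. Control tumors held 79.4 to 157.3 CPM, with a median of 94.8, and cryoablation tumors 82.1 to 293.5 CPM, with a median of 115.6. Only replicates 2 and 5, at 216.3 and 293.5 CPM, lay above the highest control tumor, and replicate 4 held 117.6 CPM. The difference was 0.41 ± 0.25 (95% interval -0.11 to 0.93, edgeR adjusted p = 0.728, exact permutation p = 0.280). Leaving out replicate 5 alone lowered it to 0.16, and leaving out all 3 tumors turned it to -0.12 ± 0.17 (edgeR adjusted p = 0.941).

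Stx3, at 19:11752482-11796767, a syntaxin of apical membranes and of granules in leukocytes, was the lowest member per length. Control tumors held 11.1 to 24.1 CPM, with a median of 19.6, and cryoablation tumors 13.6 to 28.9 CPM, with a median of 17.1. The groups overlapped almost fully, although all cryoablation tumors but replicate 4 were under the median of the controls, and that replicate was above their range. The difference was -0.06 ± 0.16 (95% interval -0.40 to 0.28, edgeR adjusted p = 0.894, exact permutation p = 0.717), and -0.17 ± 0.16 without the 3 tumors. Stx11, at 10:12813953-12840042, the syntaxin of lymphocyte granule release, ranged from 13.0 to 29.5 CPM with a median of 15.8 in the control group and from 8.39 to 25.9 CPM with a median of 16.9 in the cryoablation group. Its difference of -0.08 ± 0.21 (95% interval -0.53 to 0.37, edgeR adjusted p = 0.892, exact permutation p = 0.600) was 0.16 ± 0.20 without the 3 tumors, and it also lay just above 0 without control replicate 4 or without cryoablation replicate 5 (0.030 and 0.022). Neither of these syntaxins had a direction that held in all settings.

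Vamp2, at 11:68979316-68983210, is the vesicle SNARE of synaptic vesicles and of regulated secretion in many cells, and it is given here without a test because its small p chose it. Control tumors held 72.4 to 82.8 CPM, with a median of 75.3, and cryoablation tumors 78.7 to 107.0 CPM, with a median of 90.4. All 8 cryoablation tumors were above the control median and 7 above the highest control tumor, while 2 control tumors were above the lowest cryoablation tumor. The log2 fold change was 0.23 ± 0.07, a factor of 1.17, and without replicates 2, 4 and 5 it was 0.15 ± 0.06. These values restate what chose the gene and support nothing further. Its coefficient of variation was 4.79% in the control and 9.18% in the cryoablation group, a spread that also entered the p that chose it. In the 5 cryoablation tumors other than replicates 2, 4 and 5 it was 5.78%, against 4.59% for Vamp3. On the deposited FPKM scale, which uses total counts in place of TMM, the groups overlapped more, with 17.5 to 22.9 in control and 18.4 to 24.9 in cryoablation tumors. The vesicle SNARE's neuronal partners were near 0: Snap25 had at most 11 and Syt1 at most 4 counts in any tumor.

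Vamp3, at 4:151131757-151142420, the closely related VAMP of recycling endosomes, had a coefficient of variation of 6.29% in the control and 15.5% in the cryoablation group. It held 110.6 to 136.3 CPM in control tumors, with a median of 119.8, and 108.6 to 166.9 CPM in cryoablation tumors, also with a median of 119.8. The groups overlapped, and the value of 166.9 CPM belonged to replicate 4. The difference was 0.08 ± 0.09 (95% interval -0.10 to 0.26, edgeR adjusted p = 0.772, exact permutation p = 0.403), and -0.072 ± 0.064 without the 3 tumors. Vamp3 lies within Camta1 on the same strand, which had between 144 and 260 counts, so that counting could have split some reads between these genes.

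Vamp8, at 6:72362206-72367686, the VAMP of late endosomes and of secretory granules, varied most. Control tumors held 32.0 to 81.4 CPM, with a median of 44.0, and cryoablation tumors 30.1 to 165.5 CPM, with a median of 49.8. Replicates 2, 4 and 5 held 148.3, 165.5 and 163.2 CPM, all above the highest control tumor, while the other 5 cryoablation tumors held 30.1 to 50.0 CPM. The means of 51.7 ± 19.6 (SD, n = 9) and 85.0 ± 61.9 (SD, n = 8) gave the largest difference of the members, 0.72 ± 0.37 (95% interval -0.06 to 1.49), which did not pass the test (edgeR adjusted p = 0.728, exact permutation p = 0.267). Without the 3 tumors it turned to -0.36 ± 0.24 (edgeR adjusted p = 0.941). The higher mean of Vamp8 in the cryoablation group was therefore carried by these 3 tumors.

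Stxbp2, at 8:3680955-3693644, is the SM protein that binds Stx11 and Stx3. Control tumors held 37.7 to 59.6 CPM, with a median of 44.2, and cryoablation tumors 37.6 to 92.7 CPM, with a median of 48.7. Replicates 2, 4 and 5, at 79.4, 65.1 and 92.7 CPM, lay above all control tumors, and the other 5 cryoablation tumors lay between 37.6 and 53.3 CPM. The difference was 0.26 ± 0.17 (95% interval -0.10 to 0.62, edgeR adjusted p = 0.728, exact permutation p = 0.298) and -0.14 ± 0.11 without the 3 tumors (edgeR adjusted p = 0.941). Leaving out replicate 5 alone lowered it to 0.12.

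Unc13d, at 11:115952921-115968787, primes lytic granules for release. It held 11.5 to 27.8 CPM in control tumors, with a median of 16.2, and 11.1 to 27.2 CPM in cryoablation tumors, with a median of 14.8. The groups overlapped over nearly their whole range. The difference was -0.12 ± 0.21 (95% interval -0.56 to 0.32, edgeR adjusted p = 0.831, exact permutation p = 0.561), and -0.36 ± 0.21 without the 3 tumors (edgeR adjusted p = 0.941). The 3 genes needed for lytic granule release, Stx11, Stxbp2 and Unc13d, thus all had intervals on both sides of 0.

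**Figure D3:**
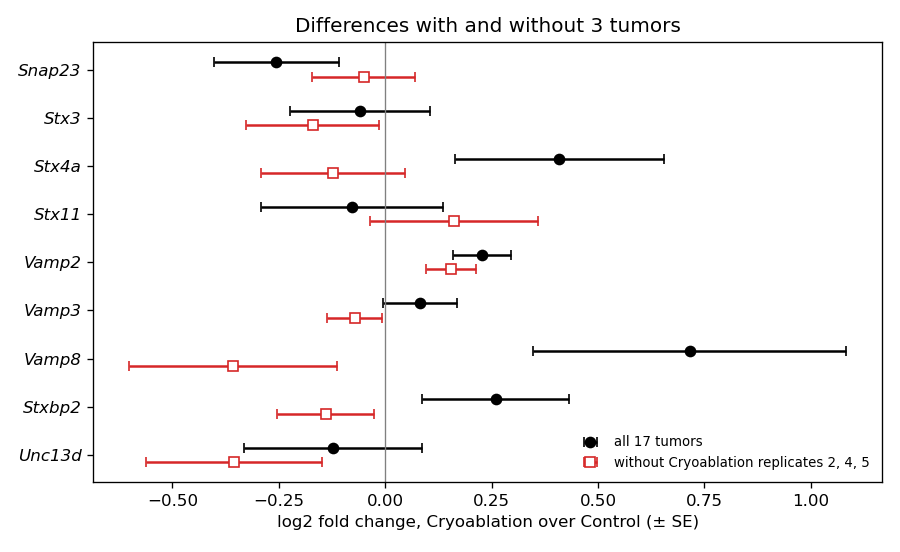
Log2 fold change of cryoablation over control from edgeR, ± standard error, for the 9 measured members. Filled circles use all 17 tumors and open squares leave out cryoablation replicates 2, 4 and 5; Stxbp2, Vamp3, Vamp8, Stx4a and Stx11 lie on the other side of 0 without those tumors.

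Since the 3 tumors differed in the length index, each member's log2 CPM was correlated with that index over tumors, both centred on their group mean and with the members left out of the index. The p are from permutations and were adjusted over the 9 members. Over the 14 tumors without replicates 2, 4 and 5, Stx4a (r = 0.97, rho = 0.96, adjusted p = 9e-05 for both), Vamp8 (r = 0.90, rho = 0.93, adjusted p = 9e-05 and 0.000135), Stxbp2 (r = 0.72, rho = 0.82, adjusted p = 0.014 and 0.00336) and Vamp3 (r = 0.68, rho = 0.62, adjusted p = 0.0207 and 0.0472) went with it. Snap23 went against it (r = -0.78, rho = -0.79, adjusted p = 0.00444 and 0.00448). Over all 17 tumors these 5 had r of 0.92, 0.96, 0.90, 0.78 and -0.90, and without the 2 tumors farthest from the median of the index, replicates 2 and 5, r was 0.89, 0.93, 0.83, 0.80 and -0.82. Such relations were common among all genes: an absolute r over 0.7 was found in 42.3% of the genes tested over the 14 tumors and in 49.3% over the 17. Only 1.69% of genes had a larger absolute r over the 14 tumors than Stx4a, but 40.7% had a larger one than Stxbp2. They are therefore a description of these libraries that is not particular to the fusion genes.

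Stx11 also went against the index, with a call that changed with the tumors kept. It had r = -0.71 over 17 tumors (rho = -0.66, permutation adjusted p = 0.00786 and 0.0174) and r = -0.45 over 14 (rho = -0.54, permutation adjusted p = 0.154 and 0.0901), so that the threshold was passed over the 17 but not over the 14 tumors. Without replicates 2 and 5 alone, r was -0.59 (permutation adjusted p = 0.0445). Vamp2 (r = 0.32 over 17 and -0.28 over 14), Unc13d (0.23 and -0.30) and Stx3 (-0.16 and -0.57) did not pass the adjusted threshold in either set, with adjusted p between 0.0651 and 0.562 for r. When the fold changes were refitted with an offset for each tumor's trend on gene length, no member passed the adjusted threshold either.

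**Figure D4:**
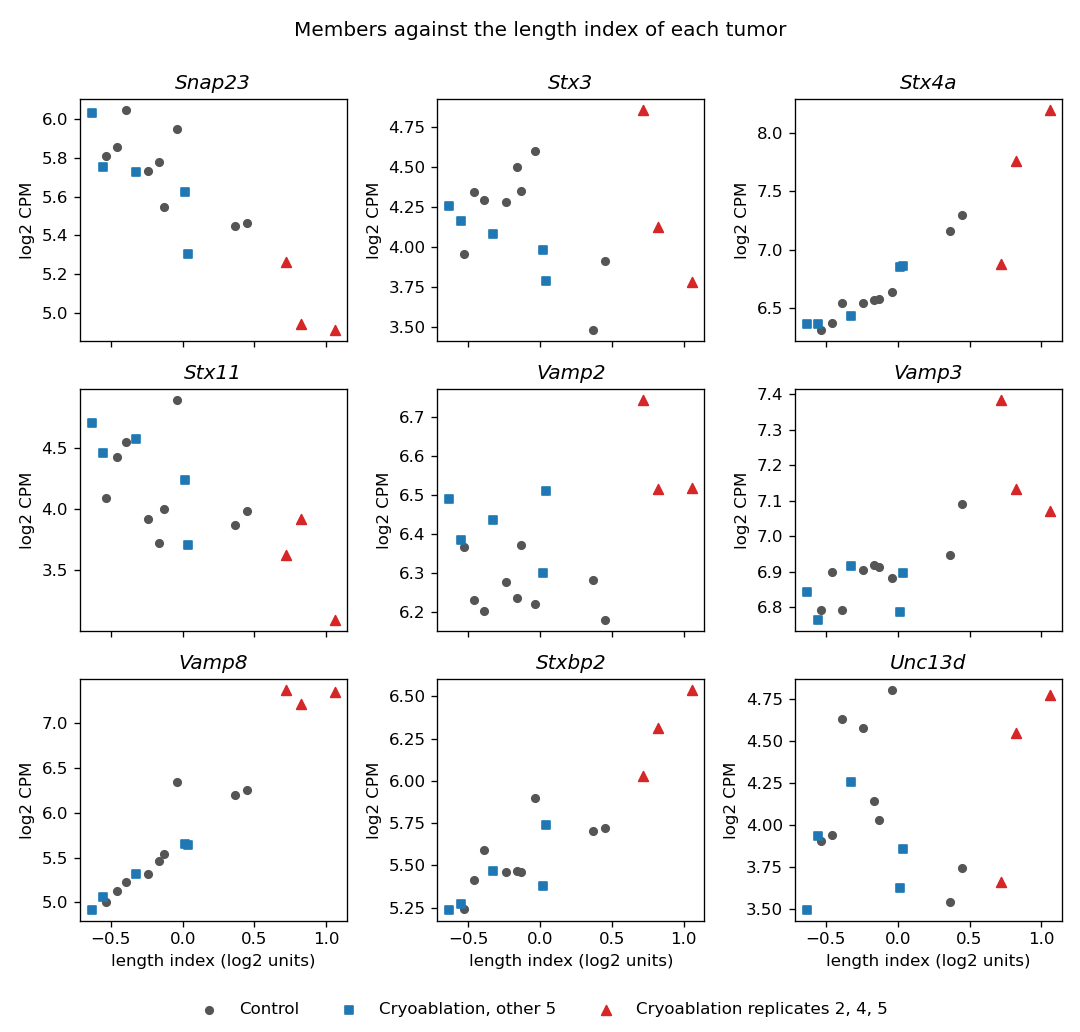
Log2 CPM of the 9 measured members against the length index of each tumor (log2 units, not centred). Circles are control tumors, squares the other 5 cryoablation tumors and triangles replicates 2, 4 and 5; Vamp8, Stx4a and Stxbp2 increase and Snap23 decreases along the index within the control tumors as well as across all tumors.

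The members were also compared with each other, in 36 pairs of group-centred log2 CPM. Over the 14 tumors, 4 pairs had a positive and 1 a negative correlation with an adjusted permutation p under 0.05 over the 36 pairs. Vamp8 went with Stxbp2 (r = 0.84, rho = 0.86, permutation adjusted p = 0.00522 and 0.00288) and with Stx4a (r = 0.84, rho = 0.88, permutation adjusted p = 0.00522 and 0.00288). Snap23 went with Stx11 (r = 0.79, rho = 0.84, permutation adjusted p = 0.0208 and 0.0102). Its relations with Stx3 (r = 0.69, rho = 0.67) and Stx4a (r = -0.73, rho = -0.71) passed by r (permutation adjusted p = 0.0323 and 0.0273) but not by rho (0.08 and 0.058). A further set left out, of all 17 tumors, the 2 farthest from the median of 1 gene of the pair after centring. That gene was Stxbp2 and Vamp8 in the 2 Vamp8 pairs and Snap23 in its own pairs. There r was 0.90 and 0.92 for the Vamp8 pairs, 0.83 for Snap23 with Stx11 and -0.74 with Stx4a. For Snap23 with Stx3 it was 0.25, so that this last relation depended on the tumors kept. Over 17 tumors, 5 positive and 5 negative pairs passed. An absolute r over 0.7 was found in 4 of the 36 pairs (11.1%) over the 14 tumors, against 17.4% of all pairs of tested genes, and in 8 (22.2%) against 21.1% over the 17. Correlated pairs were thus about as frequent, or less so, among the members as among all genes. Snap23, Stx4a, Vamp8 and Stxbp2 each also followed the length index, as given above.

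**Figure D5:**
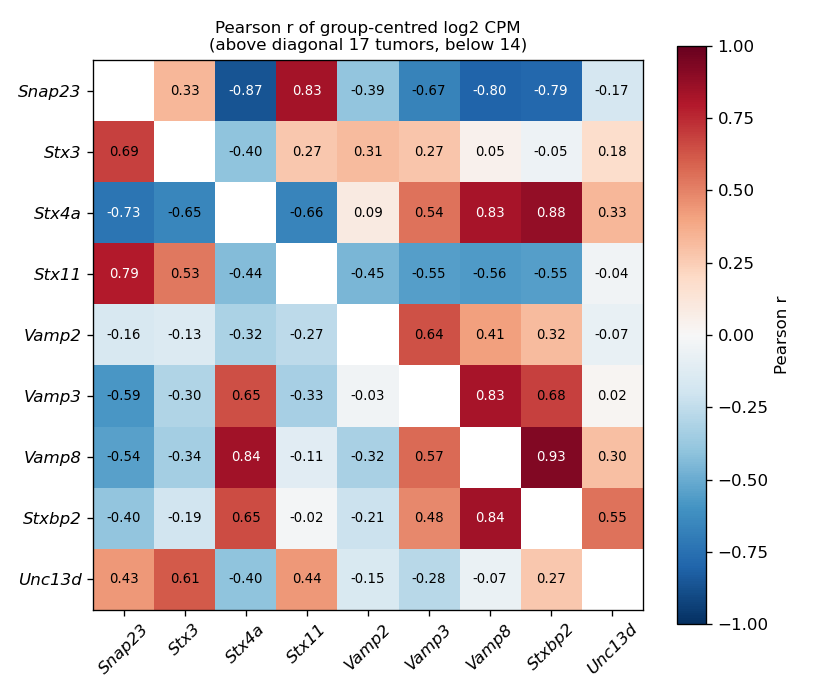
Pearson r between members over tumors, on group-centred log2 CPM, with 17 tumors above the diagonal and the 14 without cryoablation replicates 2, 4 and 5 below it (color from -1 in blue to 1 in red). Vamp8, Stx4a and Stxbp2 form a positive block, and Snap23 is negative with Stx4a in both sets.

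The genes whose pattern was most like Snap23 over the 17 tumors were Pip5k1a, Ric1, Susd6, Evi5 and Elk1 (r from 0.96 to 0.97), and over the 14 tumors Crim1, Fosl2, Traf6, Ric1 and Map3k15. For Stxbp2 they were Bscl2, Ctsz, Rhog, Bcl7b and Shkbp1 over the 17 tumors (r from 0.96 to 0.97), and Tmem176b, Arrb2, Bscl2, Ctsz and Card9 over the 14. Ctsz, a lysosomal cathepsin, and Bscl2, the lipid droplet protein seipin, were thus named in both sets. For Vamp2 they were Mrpl33, Gpat4, Ccar1, Rtf1 and Erg28 (r from 0.77 to 0.80), and over the 14 tumors Gjc1, Trp53, Cdk5r1, Rtel1 and Col7a1. The number of genes with r over 0.9 was 322 over 17 and 61 over 14 tumors for Snap23, 189 and 14 for Stxbp2 and 0 in both sets for Vamp2. Stx11 (1 and 0) and Unc13d (2 and 35), counted after the data were seen, also had few over the 17 tumors. Vamp8 (996 and 156) and Stx4a (785 and 1006), counted likewise, had many.

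Because many of these genes work in leukocytes, each member was also correlated with Ptprc, which encodes the common leukocyte antigen CD45; this relation was chosen after the data were seen. Ptprc held 30.0 to 208.7 CPM in the control tumors, 29.6 to 54.7 CPM in replicates 2, 4 and 5 and 49.5 to 112.6 CPM in the other cryoablation tumors. Over the 14 tumors, Unc13d followed it (r = 0.89, rho = 0.89, permutation adjusted p = 0.00036 and 0.00117). Over all 17 tumors it did not pass (r = 0.38, rho = 0.38, permutation adjusted p = 0.16 and 0.161), and without the 2 tumors farthest in Ptprc, control replicates 1 and 4, r was 0.04. The relation therefore depended on which tumors were kept. Snap23 (r = 0.65 over 14 and 0.70 over 17 tumors), Stx3 (0.79 and 0.60) and Stx11 (0.63 and 0.70) also went with Ptprc and Stx4a (-0.63 and -0.67) against it, with permutation adjusted p between 0.00315 and 0.0477 for r; the adjusted p of rho were 0.124 or higher over the 14 tumors for these 4, and over the 17 tumors 0.0715 for Stx3, 0.0684 for Stx4a and Stx11 and 0.00945 for Snap23, so that by rho only Snap23 over 17 tumors passed. Without control replicates 1 and 4, r of Stx3 was 0.34. How many of all genes tested reach such an r with Ptprc was not computed, so these relations are not shown to be particular to the members. Ptprc itself went against the length index over 17 tumors (r = -0.62, rho = -0.55, permutation p = 0.00277 and 0.0228) but did not pass over 14 (r = -0.54, rho = -0.35, permutation p = 0.062 and 0.239), and its part in the members' values was not tested.

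Markers of the cells that use this machinery were then set beside the members. The 8 genes of cytotoxic T and NK cells summed to 83.6 to 263.4 CPM in control tumors, 171.9 to 249.9 CPM in replicates 2, 4 and 5 and 107.5 to 205.0 CPM in the other cryoablation tumors. Prf1, encoding perforin, had 45.7 ± 17.6 CPM in the control and 42.5 ± 11.9 CPM in the cryoablation group (SD, n = 9 and 8), and Gzmb, encoding granzyme B, 71.7 ± 23.3 and 71.6 ± 18.0 CPM. In replicates 2, 4 and 5, Prf1 held 26.3 to 52.9 CPM and Gzmb at least 53.7 CPM, all within the control range. Prf1 and Gzmb were thus at similar mean levels, with no test made. Gzma, another granzyme gene, had 19.2 ± 11.3 and 21.7 ± 10.8 CPM. In replicates 2, 4 and 5 it held 26.1 to 42.5 CPM, above the control mean but within the control range of 7.54 to 46.3 CPM. The 6 macrophage genes, by contrast, summed to 2908 to 5709 CPM in the 3 tumors that stood apart, against 1639 to 4269 CPM in control tumors and 1090 to 2730 CPM in the other cryoablation tumors. Lyz2 and C1qa made up most of this sum, and C1qa held 939.0 to 1258 CPM in the 3 tumors against at most 666.0 CPM in controls. The other macrophage genes did not all go the same way. Adgre1 held 39.3 to 53.7 CPM in the 3 tumors against a control mean of 79.3. Mrc1 held 64.4 to 218.5 CPM against 99.6 to 367.7 CPM in controls, and Csf1r 108.0 to 187.5 against 116.3 to 279.2 CPM. Cd68 held 86.0 to 200.9 CPM against 62.3 to 167.1 CPM. The 4 red cell genes summed to 89.3 to 172.7 CPM in the 3 tumors against 6.16 to 74.1 CPM in controls. The 4 adipocyte genes summed to 161.7 to 205.8 CPM there against 17.6 to 107.6 CPM in controls. In the other cryoablation tumors this sum reached 176.2 CPM, so a high sum was not particular to the 3 tumors. Cfd (71.5 to 121.5 CPM in the 3 tumors) and Fabp4 (67.2 to 83.9 CPM) made up most of it. Adipoq held 3.47 to 5.85 CPM there, within the control range of 0.538 to 7.94 CPM. Plin1 held 0.859 to 5.89 against 0.462 to 4.22 CPM. The 5 fibroblast genes summed to 4112 to 7227 CPM in the 3 tumors against 6712 to 10452 CPM in controls. The 7 colon epithelium genes summed to 81.4 to 123.0 CPM in the 3 tumors, against 16.0 to 65.8 CPM in controls. This came mostly from Krt8 (25.1 to 58.8 CPM in the 3 tumors) and Krt18 (24.3 to 54.8 CPM). Epcam held 3.67 to 8.67 CPM there against 0.608 to 6.96 CPM in controls, and Cdh1 5.31 to 23.3 against 7.84 to 26.2 CPM. Cdx2 was at 0, and Vil1 at no more than 0.086 CPM in the 3 tumors against a control mean of 0.23. The 9 neutrophil, 7 mast cell and 6 platelet genes summed to at most 64.6, 61.9 and 151.9 CPM in any tumor. Levels within these lists differed widely. The neutrophil gene Ly6g had at most 2 and the platelet genes Gp9 and Gp1bb at most 3 and 1 counts. Csf3r of the neutrophil list had 49 to 682 counts. Pf4 and Itga2b of the platelet list had 426 to 2166 and 117 to 217. In the 3 tumors the neutrophil gene Ltf held 10.6 to 14.6 CPM against at most 6.25 CPM in controls, while the neutrophil sum lay within the control range. Their platelet sum was above that of the other cryoablation tumors, at most 54.9 CPM, but within the control range of 36.8 to 151.9 CPM. The part of these cells in the values of Vamp8, Stx4a, Stxbp2 and Snap23 was not tested.

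The remaining genes of the pathway were taken from a list of 76 by role, of which 64 were tested. Of the 64, 4 had an unadjusted p under 0.05 (6.25%, against 4.91% of all genes tested), 3 higher and 1 lower in the cryoablation group, and 0 passed the adjusted threshold (edgeR adjusted p = 0.728 for the 4). The median log2 fold change of the 64 was -0.02, against -0.01 over all genes tested. All 4 were among the other SNAREs of the list. Vamp5, the plasma membrane VAMP of muscle, had 22.3 ± 8.92 CPM in control and 37.4 ± 22.8 CPM in cryoablation tumors (SD, n = 9 and 8), which differed by 0.75 on the log2 scale. Bet1l and Bnip1, SNAREs of the Golgi and the endoplasmic reticulum, had 0.48 and 0.39, and Snap29, a SNAP protein of autophagosome fusion, had -0.27. Without replicates 2, 4 and 5 the 4 values were -0.05, 0.09, -0.06 and -0.08.

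None of the tested genes in the other 4 roles (9, 8, 12 and 9 genes) had an unadjusted p under 0.05. The most abundant per length among the SM proteins and syntaxin binders was Stxbp3, which binds Stx4a, with a log2 fold change of -0.10 ± 0.17 (edgeR adjusted p = 0.828). Napa, the adaptor that with Nsf takes spent SNARE bundles apart, led the priming and disassembly genes with 0.14 ± 0.11 (edgeR adjusted p = 0.739). Rab11a, a GTPase of recycling endosomes, led the docking genes with 0.14 ± 0.13 (edgeR adjusted p = 0.751), and Exoc7 led the exocyst, the complex that tethers vesicles to the plasma membrane, with 0.12 ± 0.14 (edgeR adjusted p = 0.775). Use1, a SNARE of the endoplasmic reticulum, was the most abundant of the other SNAREs, with 0.63 ± 0.34 (edgeR adjusted p = 0.728) and -0.12 without the 3 tumors. Without the 3 tumors Stxbp3 was at 0.10, Napa at -0.024, Rab11a at -0.13 and Exoc7 at 0.011, so that of these 5 genes only Exoc7 kept its sign.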

How the data were processed

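The tumors analysed were 9 of the control and 8 of the cryoablation group. The authors deposited a read count per gene, not normalized, and FPKM, which equal the count divided by gene length and total count to within 3.89e-14. The aligner, the counting program and the strand setting are not given in the sources used here. The labels name GRCm38, but of 21827 genes shared with GENCODE M21 only 499 have its start and end, so gene positions are given as deposited and without a build. All count columns were matched to samples (0 left out). The members, lists and tests were chosen with earlier results of these data known.

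Counts were filtered with filterByExpr by group, scaled by TMM and fitted with edgeR 4.0.16 (R 4.3.3; quasi-likelihood F test, group as the only term), with Benjamini-Hochberg adjustment over 13005 genes. Single members were tested by an exact permutation test (two-sided) on log2 CPM with a prior count of 2, whose smallest possible p is 4.11e-05. Correlations used 100000 permutations. Benjamini-Hochberg adjustment was made over the 9 members or the 36 pairs. Principal components, marker lists and RefSeq promoters were used as descriptions. Named genes are the 10 members, the genes of the pathway list with an unadjusted p under 0.05, the most abundant gene per length of each of its 5 roles, the 5 genes most like Vamp2, Snap23 and Stxbp2, and the marker genes. Alternatives were DESeq2 1.42.0, limma 3.58.1 (voom with sample weights), other scalings and filters, offsets for gene length, a replicate block and leaving out tumors. The scripts were tested on simulated data. The labels do not say how replicates were kept apart beyond naming separate tumors, and the p measure the spread between these tumors. Total counts of at least 13524899 put the counting error of all members below the spread between tumors.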

Additional observations from a re-analysis of the deposited data

Results flagged for a closer look

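Stx3, the syntaxin of apical membranes and leukocyte granules, had 28.9 CPM in cryoablation replicate 4, while the next highest of the 8 cryoablation tumors had 19.0 CPM. On the log2 CPM scale the gap was 0.554 of the group's whole range, past the Dixon limit for 8 samples. It was the only such value among 18 sets of 1 member in 1 group, and chance alone gives about 1 in 20 such values.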

How the results depend on the processing

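No gene passed the adjusted threshold under any alternative, and the log2 fold changes of Snap23 and Unc13d kept their direction in all of them. That of Vamp2 did so too, but on the values that chose it. Without cryoablation replicates 2, 4 and 5, the log2 fold changes turned to -0.14 for Stxbp2, -0.072 for Vamp3, -0.36 for Vamp8, -0.12 for Stx4a and 0.16 for Stx11 (the cause was not tested). With limma voom, Vamp3 was -0.020 and Stx11 0.079. Under it Stx3 was -0.31, Unc13d -0.37, Vamp8 0.20, Stx4a 0.22 and Stxbp2 0.074. With edgeR these were -0.06, -0.12, 0.72, 0.41 and 0.26. With an offset for gene length Stx3 was 0.041, and with offsets for length and GC content, an alternative chosen after seeing the data, 0.048. On the log2(FPKM + 0.1) scale Vamp3 differed by -0.031 (exact permutation p = 0.597). The correlation with the length index turned to -0.28 for Vamp2 and -0.30 for Unc13d without the 3 tumors, to -0.30 for Unc13d without the 2 tumors farthest from the median, and fell short at -0.45 for Stx11. Members other than Vamp2 with an unadjusted p under 0.05 numbered 1 under DESeq2, 3 under limma voom (Snap23, Stx3 and Unc13d) and 0 to 2 with single tumors left out. They numbered 1 without control replicate 4 and without cryoablation replicate 3 or 6, and 2 without cryoablation replicate 7. All genes with an unadjusted p under 0.05 numbered 1312 under limma voom (615 higher and 697 lower), 992 without a filter, 325 without the 3 tumors (172 higher and 153 lower) and 252 to 1388 with single tumors left out. It was 1249 or more without control replicate 1 or 5 or cryoablation replicate 3, 6 or 7, and 404 or fewer without control replicate 2, 3, 4, 7 or 8 or cryoablation replicate 2, 4 or 5. In the pathway list, the higher genes numbered 5 under limma voom, 0 without the 3 tumors and 0 to 5 with single tumors left out: 5 without control replicate 1 or cryoablation replicate 6 or 7, 1 without control replicate 2, 4, 6 or 9, and 0 without cryoablation replicate 2, 4 or 5. The lower genes numbered 2 under limma voom, 3 without a filter, 0 without the 3 tumors, 0 with either offset and 0 to 4 with single tumors left out: 4 without control replicate 1, 3 without cryoablation replicate 6, 2 without control replicate 5 or 9 or cryoablation replicate 3, and 0 without control replicate 2, 3, 4, 6 or 7 or cryoablation replicate 2, 4, 5 or 8. With single tumors left out, log2 fold changes ran from -0.36 to -0.19 for Snap23, 0.12 to 0.32 for Stxbp2, 0.19 to 0.25 for Vamp2, 0.01 to 0.11 for Vamp3, 0.50 to 0.83 for Vamp8, -0.19 to -0.01 for Stx3, 0.16 to 0.50 for Stx4a, -0.19 to 0.030 for Stx11 (above 0 without control replicate 4 or cryoablation replicate 5) and -0.25 to -0.03 for Unc13d.

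The labels number the tumors, and no source says that a number marks a shared animal or batch. The deviations of same-numbered tumors correlated at 0.20 to 0.64 for numbers 3, 4, 5 and 6, at -0.03 to 0.01 for 1, 7 and 8, and at -0.51 for 2, so the numbers were not taken to pair the tumors. With the number as a replicate block, 1 member (Snap23) had an unadjusted p under 0.05, 439 of all genes did (200 higher and 239 lower), and the pathway list had 0 higher and 2 lower.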
